A study of Mus musculus with 12 samples.

Results

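The genes described here are cell cycle inhibitors and members of the p53 response: Cdkn1a, Cdkn1b, Cdkn1c, Cdkn2a, Cdkn2c, Trp53, Mdm2, Ccng1, Gadd45a and Gadd45b. They were taken by symbol, 10 of 29957 named entries in the microglia table and 9 of 14663 in the hippocampus table. Cdkn2a has no entry in the hippocampus table used here. All mice were C57BL/6 with no treatment named in the labels. Hippocampal microglia were sequenced at 3 months and at 24 months of age (n = 3 libraries each), and whole hippocampus at 6 months and at 18 months (n = 3 libraries each). How the microglia were isolated is not given in the sources used here. Nothing in the labels ties each library to its own mouse, and the tests below measure only the variation among these libraries.

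Separate families of inhibitors hold back the cyclin-dependent kinases that drive a cell through its division cycle. The CIP/KIP proteins p21 (Cdkn1a), p27 (Cdkn1b) and p57 (Cdkn1c) bind cyclin and kinase complexes, while the INK4 proteins p16 (Cdkn2a) and p18 (Cdkn2c) bind Cdk4 and Cdk6. The transcription factor p53 (Trp53) is kept low by the ubiquitin ligase Mdm2 and, once stabilised by stress, switches on Cdkn1a, Ccng1, Gadd45a and Mdm2 itself. Gadd45b is a relative of Gadd45a that is also induced by NF-kB and by acute stimuli. p16 and p21 are the most used transcript markers of senescence, and microglia are long-lived macrophages that renew by division in the brain.

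Stretches of DNA before the start sites are shown first for 4 genes: Cdkn1a, Mdm2 and Ccng1 are textbook p53 targets, and Gadd45b was high in the same libraries as Cdkn1a. RefSeq windows on build GRCm38.p6 were matched for 9 of the 10 genes, 12 windows in all, and Cdkn1c had none. The deposited files hold no coordinates. Capitals mark matches to the p53 half-site consensus in Cdkn1a (chr17:29090729-29090978, plus strand), Ccng1 (chr11:40755310-40755536, minus strand) and Mdm2 (chr10:117710759-117711008, minus strand). In Gadd45b (chr10:80929841-80930090, plus strand) they mark, in order, an E box, a GC box, a pair of CCAAT boxes and a TATA box. Each is written 5′ to 3′ on the strand of the gene and lies just upstream of it, outside its annotated exons and introns.
Cdkn1a: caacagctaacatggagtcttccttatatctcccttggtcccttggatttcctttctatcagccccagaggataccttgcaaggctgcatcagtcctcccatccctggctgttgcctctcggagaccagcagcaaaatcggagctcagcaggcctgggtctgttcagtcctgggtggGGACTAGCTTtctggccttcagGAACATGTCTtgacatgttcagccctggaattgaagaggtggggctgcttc
Ccng1: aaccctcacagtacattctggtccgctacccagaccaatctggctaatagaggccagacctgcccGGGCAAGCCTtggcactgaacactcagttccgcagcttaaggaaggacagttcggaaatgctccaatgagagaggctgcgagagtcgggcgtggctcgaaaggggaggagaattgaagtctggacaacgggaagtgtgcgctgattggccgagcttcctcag
Mdm2: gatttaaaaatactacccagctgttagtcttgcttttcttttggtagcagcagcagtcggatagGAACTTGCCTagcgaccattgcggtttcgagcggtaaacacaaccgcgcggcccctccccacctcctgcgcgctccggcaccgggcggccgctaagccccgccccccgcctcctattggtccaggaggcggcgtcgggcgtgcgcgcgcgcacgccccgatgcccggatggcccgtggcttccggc
Gadd45b: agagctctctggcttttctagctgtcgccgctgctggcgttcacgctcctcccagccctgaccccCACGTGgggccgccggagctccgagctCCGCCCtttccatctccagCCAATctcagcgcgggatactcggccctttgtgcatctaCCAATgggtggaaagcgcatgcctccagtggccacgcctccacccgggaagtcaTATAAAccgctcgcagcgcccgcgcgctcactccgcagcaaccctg

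Windows of 250 bases before the start were searched on both strands. That of Ccng1 reaches 23 bases into the annotated gene, which are not printed, and positions are counted from the window's own end. A p53 half-site of 10 bases was found in 5 of the 12 windows (Cdkn1a, Ccng1, Mdm2, Trp53 and Gadd45a, 1 window each) and in 7.13% of the 32851 windows of that length in the table. In the printed Cdkn1a window the half-site GAACATGTCT, 51 to 42 bases before the start, is followed end to end by tgacatgttc, which has 1 mismatch to the consensus. Cdkn1a has another window, before a start further downstream (chr17:29093519-29093768, plus strand). That window lies within the annotated gene and held GC boxes but no half-site. In Ccng1 the half-site GGGCAAGCCT, 185 to 176 bases before the start, directly follows agacctgccc, also with 1 mismatch. Such a pair, a search added after these sequences had been seen, was present in 25 of all windows (0.0761%). Mdm2 had the single half-site GAACTTGCCT. The AP-1 motif TGANTCA (6.75% of all windows) and the CRE motif TGACGTCA (1.55%) were in 0 of the 12 windows. CACGTG, the E box, was in 6.02% of all windows, CCAAT in 33.8%, GGGCGG in 32.7% and TATAAA in 12.4%. These letter matches describe the windows and were not tested for binding.

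Between 8068023 and 14217142 estimated counts stood behind each microglia library. The summed level of 10 microglia markers was 70894 to 76466 CPM (counts scaled to the TMM-adjusted library size) at 3 months. It was 52514, 52233 and 70163 CPM in 24 month replicates 1, 2 and 3, so the label held in each library. Immediate early genes, the fast transcripts of stimulated cells such as Fos, Jun and Egr1, summed to 920 to 1498 CPM in the young libraries and to 29245, 31461 and 1250 CPM in 24 month replicates 1, 2 and 3. Neutrophil and monocyte markers summed to 1.97 to 9.60 CPM in the young libraries and to 2393, 50.8 and 3.61 CPM in the old ones. Mural cell markers summed to 0.299 to 0.873 CPM and to 294.5, 38.8 and 0.759 CPM, with Pdgfrb, Kcnj8 and Higd1b at 0 in all 6. In these lists old replicates 1 and 2 therefore stood apart from old replicate 3, and the main values that rest on them are given with old libraries left out in turn. Not all marker lists split this way. Astrocyte markers summed to 128 to 267 CPM in the young libraries and to 346, 459 and 333 CPM in the old ones. Endothelial markers summed to 23.5 to 45.5 CPM and to 51.9, 140 and 66.4 CPM. The split did not hold over all genes tested. There, log2 levels correlated at 0.833 between old replicates 2 and 3, 0.79 between 1 and 2 and 0.745 between 1 and 3. Among the young, 3 month replicate 1 correlated at 0.74 and 0.749 with replicates 2 and 3, which correlated at 0.885.

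Of the 10 genes, 7 passed the filter on low counts in microglia (all but Cdkn2a, Gadd45a and Gadd45b). None of the 7 passed edgeR's quasi-likelihood test with Benjamini-Hochberg adjustment, where 0 of 10663 genes were called (0%). DESeq2 called 1 of them, Cdkn1a, as it called 2.18% of the genes with an adjusted p. In edgeR, Cdkn1a and Mdm2 had an unadjusted p under 0.05 with higher means at 24 months, as did 3.52% of all genes tested. In CPM, all 3 old libraries exceeded the highest young library in Cdkn1a and Cdkn1b (7.26% of all genes tested) and lay under the lowest one in Cdkn2c (6.18%). The median log2 change of the 7 was 0.44, beside 0.01 for all genes tested. Genes that pass such a filter through the group in which they are high had to differ, so these counts are a description. In bulk samples, more mRNA per cell and more cells that hold it cannot be told apart.

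**Figure D1:**
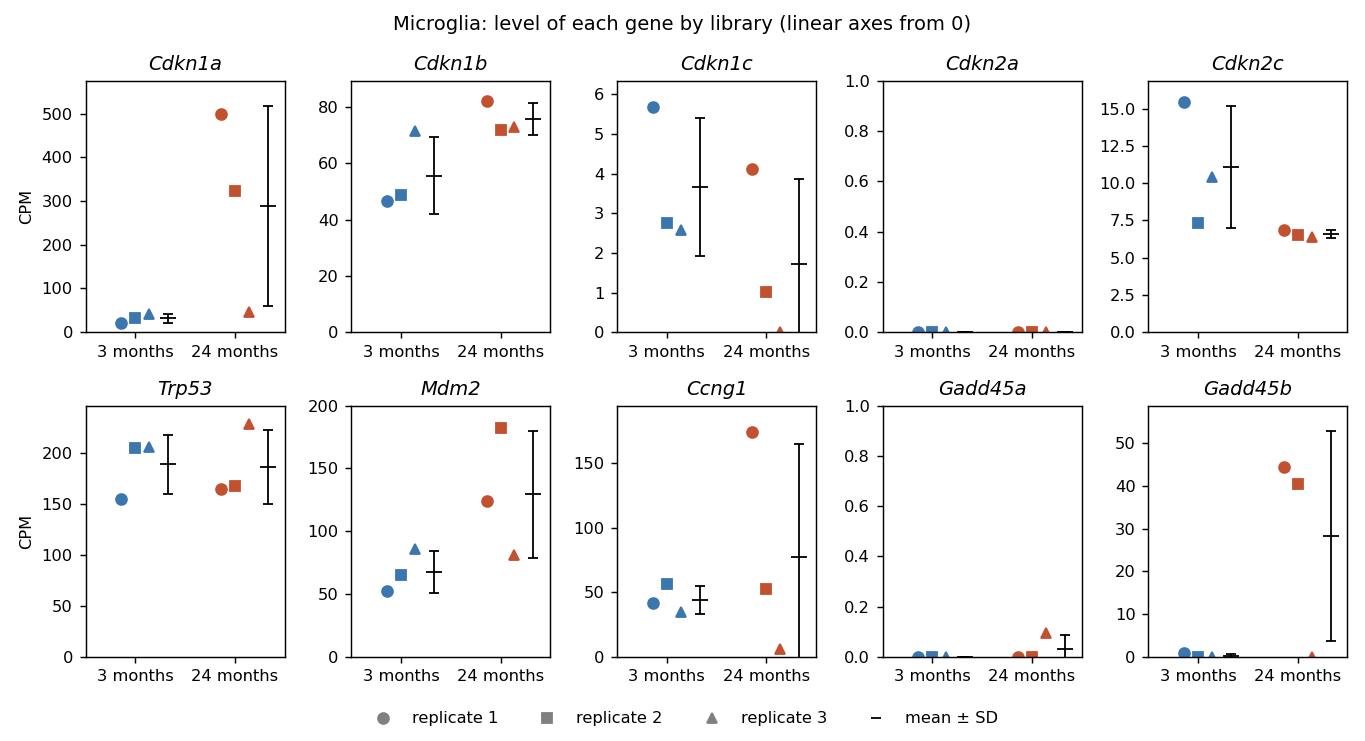
Level of each of the 10 genes in microglia (CPM, linear axes from 0) at 3 and 24 months. Symbols are single libraries, the bar beside them is the mean ± SD (n = 3) and is not drawn below 0. Cdkn1a and Gadd45b were high in 24 month replicates 1 and 2 and at or near the young level in replicate 3, and Cdkn2a was at 0 throughout.

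Among the CIP/KIP inhibitors, Cdkn1a showed the widest difference with age. Its gene spans chr17:29090979-29100722. The level was 21.3, 32.7 and 40.6 CPM in the 3 month libraries and 499, 323 and 45.8 CPM in the 24 month libraries. The groups did not overlap, but the margin was thin: old replicate 3 lay just above the highest young library, and old replicates 1 and 2 lay far above it. The means were 31.5 ± 9.66 and 289 ± 228 CPM (SD, n = 3 each). This is a log2 change of 3.20 ± 0.78 (SE), with an unadjusted p of 0.00379 and an adjusted p of 0.546 in edgeR. Of all genes tested, 2.04% had a higher fitted change. Without 24 month replicate 3 the log2 change was 3.68 ± 0.36 (SE) and passed edgeR's test (adjusted p = 0.0157), as did 0.489% of genes in that fit. With any other library left out it was 2.54 to 3.41 and did not pass. DESeq2's Wald test on the same rounded counts gave 3.20 ± 0.82 (SE) and an adjusted p of 0.00764. The authors' deposited table gives 3.23 ± 0.82 (SE) with an adjusted p of 0.00829, where 2.01% of genes were past the same threshold.

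Cdkn1b encodes p27, which keeps resting cells out of the cycle and is controlled largely at the protein level. It stood at 46.6, 48.9 and 71.5 CPM at 3 months and at 82.1, 71.9 and 72.7 CPM at 24 months. In CPM the old libraries were all above the young ones, by a margin of less than 1 CPM between 3 month replicate 3 and 24 month replicate 2. In the deposited TPM values, which divide by transcript length, the same libraries read 27.5, 29.2 and 46.2 against 47.3, 43.5 and 40.7. On that scale the groups overlapped. Its log2 change was 0.44 ± 0.34 (SE; edgeR, adjusted p = 0.993). The old libraries were close to each other, with a ratio of highest to lowest of 1.14, and 97.6% of genes tested varied more among them.

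Cdkn1c, the maternally expressed imprinted inhibitor p57, was low. Its level was 5.67, 2.74 and 2.59 CPM at 3 months and 4.13, 1.01 and 0 CPM at 24 months, and the groups overlapped. The estimated counts were 76.1, 22.2 and 37.6 against 39, 10 and 0, and the log2 change was -1.10 ± 1.60 (SE; edgeR, adjusted p = 0.998). Replicate 1 was the highest library at each age.

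Of the INK4 genes, Cdkn2a was not detected. Its count was 0 in all 6 microglia libraries, which allows up to 0.204 to 0.374 CPM per library (3 counts of the total, counting error only). The gene gives rise to both p16 and p19Arf, an inhibitor of Mdm2, and the deposited entry sums its transcripts. Cdkn2c, which encodes p18, stood at 15.5, 7.36 and 10.4 CPM at 3 months and at 6.88, 6.56 and 6.36 CPM at 24 months. Every old library was below every young one, and the old libraries were nearly equal. Their highest value was 1.08 times their lowest, and 99.2% of genes tested varied more. The log2 change was -0.75 ± 0.99 (SE; edgeR, adjusted p = 0.998), so the lower level did not exceed the error of the fit.

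Trp53 itself varied least among the p53 genes tested. The level was 155, 205 and 206 CPM at 3 months and 164, 167 and 229 CPM at 24 months. The groups overlapped, and the means were 189 ± 29.1 and 187 ± 36.3 CPM (SD, n = 3 each). In the fit Trp53 had a log2 change of -0.02 ± 0.23 (SE; edgeR, adjusted p = 0.998). The old libraries with high Cdkn1a, replicates 1 and 2, were the ones with the lower Trp53 level.

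Mdm2, the ligase that marks p53 for degradation, stood at 52.8, 64.8 and 85.6 CPM at 3 months and at 124, 182 and 81.4 CPM at 24 months. Old replicates 1 and 2 were above all young libraries, and old replicate 3 fell within the young range. Mdm2 had a log2 change of 0.93 ± 0.37 (SE), with an unadjusted p of 0.0366 and an adjusted p of 0.871 in edgeR. It was 0.60 ± 0.39 (SE) without 24 month replicate 2, 0.95 ± 0.43 without replicate 1 and 1.15 ± 0.34 without replicate 3, and did not pass in any of these fits. In the deposited TPM values, which divide by transcript length, the same libraries read 51.6, 48.4 and 53.5 against 75.6, 125 and 50.9. On that scale the young libraries were nearly equal. The average length of the Mdm2 transcripts counted ranged from 1388 bases in 3 month replicate 1 to 2349 bases in 3 month replicate 3. With lengths as an offset in edgeR the log2 change was 0.73, and the authors' deposited table gives 0.71 with an adjusted p of 0.546.

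Ccng1, which encodes cyclin G1, a p53 target that binds the phosphatase acting on Mdm2, differed widely among the old libraries. Its level was 41.8, 56.1 and 34.9 CPM at 3 months and 174, 52.6 and 5.70 CPM at 24 months. The 3 old libraries lay above, within and below the young range. The log2 change was 0.81 ± 0.96 (SE; edgeR, adjusted p = 0.998) and turned to -0.61 without 24 month replicate 1. The ratio of the highest to the lowest old library was 30.6, where the median gene tested had 2.52 and 15.6% of genes were wider. The value in old replicate 3 rests on 60 estimated counts, against 450 to 560 in the young libraries, so it is not a count near 0. The same libraries also differed in cycling cell markers, at 387, 151 and 78.7 CPM in old replicates 1, 2 and 3 and 60.3 to 78.0 CPM in the young, and in the neutrophil and mural markers above. Their part in the Ccng1 level was not tested.

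Of the Gadd45 stress sensors, which bind Pcna and the stress kinase Map3k4, Gadd45a was all but absent. It had 0 counts in 5 libraries and 1 count in 24 month replicate 3. Gadd45b had 11, 0 and 1 estimated counts at 3 months and 419, 401 and 0 at 24 months, or 0.821, 0 and 0.0681 CPM against 44.4, 40.4 and 0 CPM. It was therefore high in old replicates 1 and 2 and not detected in old replicate 3 or in 3 month replicate 2. The gene did not pass the filter on low counts. In edgeR without that filter the log2 change was 6.44 ± 2.33 (SE) with an unadjusted p of 0.0200 and an adjusted p of 0.718. It was 5.95 without 24 month replicate 1, 6.11 without replicate 2 and 7.03 ± 1.78 (SE) without replicate 3 (edgeR, adjusted p = 0.223), and did not pass in any of these fits. The authors' deposited table gives 6.55 ± 2.23 (SE) with an adjusted p of 0.111.

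**Figure D2:**
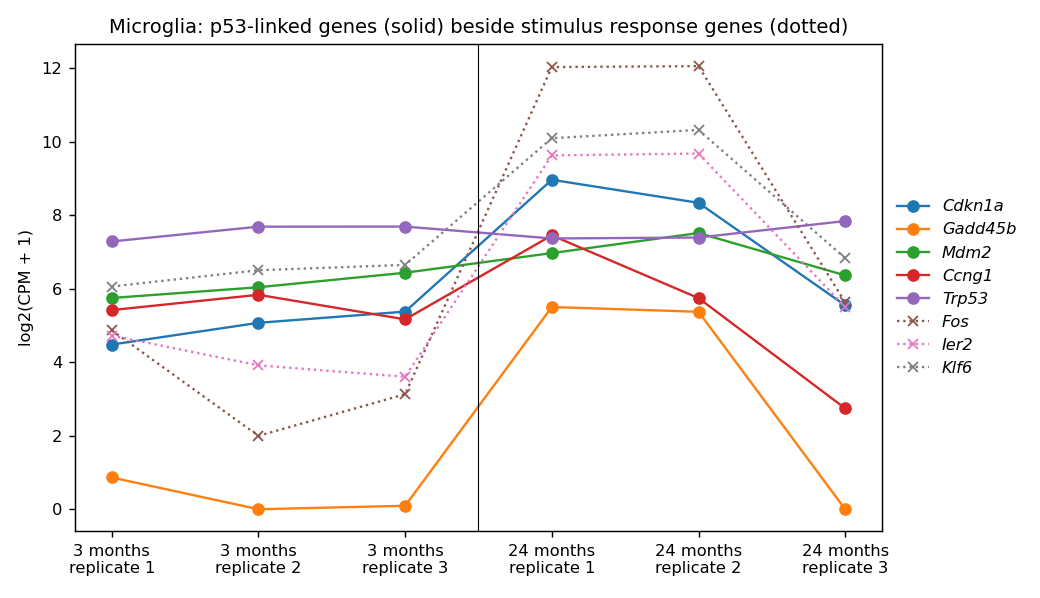
Level of Cdkn1a, Gadd45b, Mdm2, Ccng1 and Trp53 (solid) and of Fos, Ier2 and Klf6 (dotted) in the 6 microglia libraries, as log2(CPM + 1). Lines only join the points of a gene and carry no order. Cdkn1a and Gadd45b shared their high libraries, 24 month replicates 1 and 2, with the dotted genes, while Trp53 stayed between 155 and 229 CPM. Klf6 was picked for its likeness to Cdkn1a in these libraries.

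The genes most like Cdkn1a across the 6 microglia libraries were sought among 5320 genes with a mean level at or above the median gene tested. Likeness was the root mean square difference of log2(CPM + 1) values centred per gene. Klf6, a zinc finger factor of acute responses, was closest (0.28), at 65.8, 89.8 and 99.4 CPM in young and 1094, 1279 and 113 CPM in old libraries. Nfkbia, the NF-kB inhibitor, came next (0.33), with 2130, 1826 and 158 CPM in the old libraries. Rel, an NF-kB subunit, came after it (0.42), with 453, 437 and 69.1 CPM. All 3 had their high values in old replicates 1 and 2, as a search by likeness to Cdkn1a in these libraries had to find. For Ccng1 the closest were 2310035C23Rik (0.53), Atp6v1a, a proton pump subunit (0.57), and Zcchc6, a terminal uridylyltransferase (0.59). Their levels in old replicate 3 were 5.51, 22.0 and 7.98 CPM, below all young libraries, as was Ccng1, whose pattern they were picked to match.

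The immediate early genes carried the same split between old libraries on a larger scale. Of 17 listed genes, 14 passed the filter and all 14 had higher means at 24 months, beside 50.5% of all genes tested. Each had an unadjusted p under 0.05 in edgeR, where 3.52% of all genes tested did with a higher mean. None passed the adjusted test in edgeR, and their median log2 change was 5.66, beside 0.01 for all genes tested. Klf2, at 0.149, 0.374 and 0.136 CPM at 3 months, passed the filter only through its 24 month libraries. These counts are therefore a description. Relative to the young mean, the median was 6.43 in old replicate 1, 6.01 in old replicate 2 and 0.86 in old replicate 3. Without old replicate 3, 11 of the 16 then tested passed in edgeR (0.489% of all genes in that fit), and without replicate 1 or 2 none of 14 did. Old replicate 3 had been set apart by its low level of these same genes, so the count without it is a description. Fos stood at 28.2, 2.99 and 7.76 CPM in young and 4190, 4261 and 48.5 CPM in old libraries. Cdkn1a was thus near the young level in the old library with the lowest immediate early genes. The part of this shared split in the Cdkn1a, Mdm2 and Gadd45b values was not tested.

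Other p53 target genes had higher means in some cases and lower in others. Of 29 listed, 21 were tested in microglia, with 13 higher and 8 lower at 24 months (50.5% of all genes tested were higher), none called in edgeR, and a median log2 change of 0.27. Relative to the young mean, the median was 0.18 in old replicate 1, 1.23 in replicate 2 and 0.19 in replicate 3 (11, 15 and 14 of 21 above it), beside 0.00, 0.15 and 0.11 for all genes tested. Btg2, an antiproliferative gene of both the p53 and the immediate early response, stood at 593, 358 and 506 CPM in young and 5228, 5009 and 421 CPM in old libraries. Its log2 change was 2.87 ± 0.80 (SE; edgeR, adjusted p = 0.629), and old replicate 3 lay within the young range. Without that library it was 3.37 ± 0.23 (SE) and passed (edgeR, adjusted p = 0.0044), as did 0.489% of genes in that fit. Without replicate 1 or 2 it was 2.48 or 2.54 and did not pass. Perp, a desmosomal effector of p53, had no count at 3 months and read 23.7, 4.44 and 3.23 CPM in the old libraries. Sesn1, a sestrin of the antioxidant response, stood at 421, 374 and 239 CPM in young and 154, 292 and 245 CPM in old libraries, and the groups overlapped. The 2 genes of this list with an unadjusted p under 0.05 in edgeR were Btg2 and Perp, both higher at 24 months, a result shared by 3.52% of all genes tested. Perp passed the filter only through its 24 month libraries, so its p is a description.

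Upstream of p53, 16 of 18 listed regulators and damage kinases were tested, 9 higher and 7 lower, none called in edgeR. Trp53bp1, a damage mediator that binds p53, stood at 109, 40.2 and 112 CPM in young and 32.1, 58.4 and 28.1 CPM in old libraries, a log2 change of -1.14 ± 0.52 (SE; edgeR, adjusted p = 0.914). Rad50, of the break-sensing complex, was at 0, 3.12 and 3.61 CPM against 42.7, 22.8 and 3.51 CPM. The high values were again those of old replicates 1 and 2.

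Downstream, the cyclins and kinases that these inhibitors restrain were tested for 11 of 15 listed genes, 6 higher and 5 lower, none called in edgeR. Cdk2, the kinase that p21 and p27 bind with cyclin E, stood at 117, 62.2 and 46.8 CPM at 3 months and at 28.9, 31.7 and 23.6 CPM at 24 months. Every old library was below every young one, with a log2 change of -1.42 ± 0.47 (SE; edgeR, adjusted p = 0.782). Ccnb2, a mitotic cyclin, was at 0, 0.125 and 0 CPM against 41.1, 10.2 and 1.14 CPM, in the order of the cycling cell markers. It passed the filter only through its 24 month libraries, so its higher level is a description. Of 15 retinoblastoma and E2F genes, 11 were tested, 8 higher and 3 lower, none called in edgeR (50.5% of all genes tested were higher). Rbl1, the pocket protein p107, stood at 0, 6.23 and 8.99 CPM against 21.3, 21.3 and 28.1 CPM, with no overlap and a log2 change of 2.21 ± 1.62 (SE; edgeR, adjusted p = 0.992).

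Relatives of the inhibitors gave 9 tested of 10, 5 higher and 4 lower, none called in edgeR. Btg1, an antiproliferative relative of Btg2, stood at 265, 261 and 242 CPM in young and 685, 762 and 238 CPM in old libraries, a log2 change of 1.13 ± 0.40 (SE; edgeR, adjusted p = 0.815). Without old replicate 3 it was 1.48 ± 0.15 (SE) and passed (edgeR, adjusted p = 0.0167), as did 0.489% of genes in that fit. Without old replicate 1 or 2 it was 0.96 or 0.85 and did not pass. That library had been set apart with these data in view, so the fit without it is a description. Tob2, of the same family, stood at 12.9, 39.3 and 50.7 CPM against 134, 125 and 26.8 CPM. In both, old replicates 1 and 2 were high and old replicate 3 was not. Of the Gadd45-linked stress kinases and Pcna, 9 of 9 were tested and 8 were higher, beside 50.5% of all genes tested. Their median log2 change was 0.82, beside 0.01 for all genes tested. None was called in edgeR, and none had an unadjusted p under 0.05 there. Mapk14, the p38 alpha kinase, was the lower one, at 247, 79.7 and 110 CPM against 32.2, 112 and 66.4 CPM. Of the FoxO and ubiquitin ligase genes that act on p27, 6 of 7 were tested, 4 higher and 2 lower, none called in edgeR. Skp2, whose ligase degrades p27, stood at 0.224, 0.997 and 5.99 CPM against 0.106, 15.1 and 8.45 CPM, and the groups overlapped.

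Levels could be compared between genes only in TPM, which the authors deposited for microglia. At 3 months Trp53 was highest, at 155 ± 33.3 TPM (SD, n = 3), and its lowest library was above every library of the other 9 genes. Mdm2 followed at 51.2 ± 2.58 TPM, then Cdkn1a at 36.7 ± 11.9 and Cdkn1b at 34.3 ± 10.3 TPM. The ranges of Mdm2 and Cdkn1a overlapped, as did those of Cdkn1a and Cdkn1b, so these neighbours did not differ beyond their spread. Ccng1 was at 18.1 ± 3.91, Cdkn2c at 15.5 ± 5.20 and Cdkn1c at 2.86 ± 1.25 TPM, where Ccng1 and Cdkn2c overlapped. Gadd45b was at 0.342 ± 0.520 TPM. At 24 months Cdkn1a read 554, 386 and 53.8 TPM, above Trp53 (129, 140 and 187 TPM) in replicates 1 and 2 and below it in replicate 3.

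**Figure D3:**
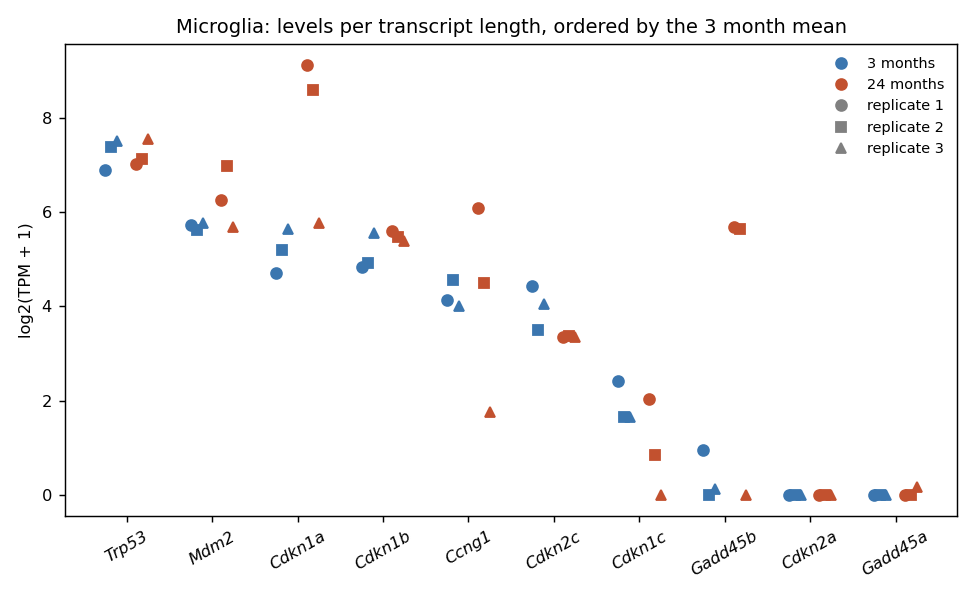
Levels per transcript length in microglia, as log2(TPM + 1), ordered by the 3 month mean, with single libraries as points. Trp53 led at 3 months, while at 24 months Cdkn1a was above it in replicates 1 and 2, at 554 and 386 TPM.

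In whole hippocampus at 6 and 18 months, none of the 9 genes differed beyond the spread. All 9 passed the filter, and limma's moderated test called 0 of them, as it called 0 of 13491 genes (0%). None had an unadjusted p under 0.05 (5.37% of all genes tested), and none had groups that did not overlap (11% of all genes tested). The median log2 change was 0.03, beside -0.04 for all genes. Values are the authors' normalized counts, which are comparable between libraries for 1 gene but not between genes. From the steps of low values 1 read was worth about 0.515 to 1.80 normalized counts, so the lowest genes rest on a few reads.

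**Figure D4:**
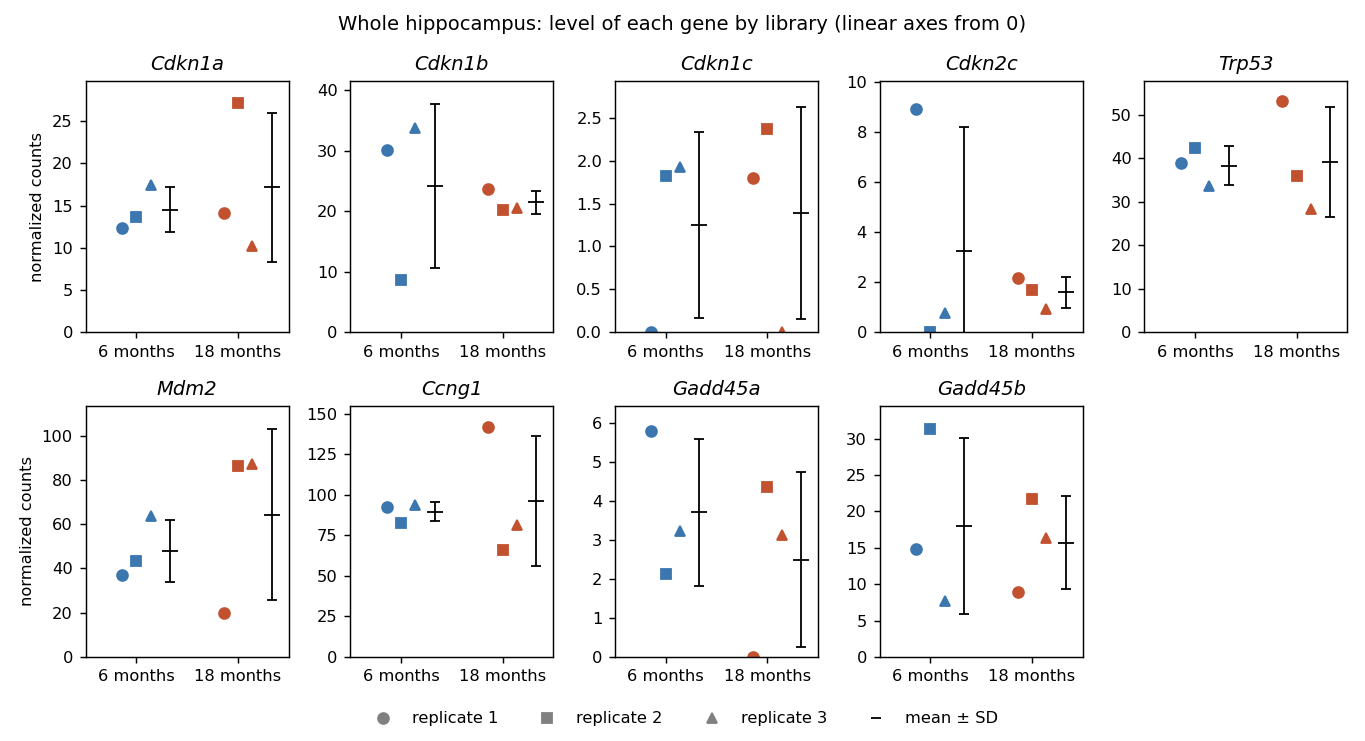
Level of each of 9 genes in whole hippocampus (normalized counts, linear axes from 0) at 6 and 18 months. Symbols are single libraries, the bar beside them is the mean ± SD (n = 3) and is not drawn below 0. The groups overlapped in every panel.

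Cdkn1a stood at 12.4, 13.7 and 17.5 normalized counts at 6 months and at 14.1, 27.1 and 10.2 at 18 months. The highest and the lowest library were both of 18 months, and the log2 change was 0.13 ± 0.64 (SE; limma, adjusted p = 0.990). Cdkn1b stood at 30.1, 8.68 and 33.7 against 23.7, 20.1 and 20.5 normalized counts, with a log2 change of 0.03 ± 0.60 (SE). Here 6 month replicate 2 was low and the 18 month libraries were alike. Cdkn1c was at 0, 1.83 and 1.93 against 1.80, 2.38 and 0, and Cdkn2c at 8.95, 0 and 0.780 against 2.15, 1.68 and 0.937 normalized counts. Both are near the value of a single read in most libraries, and their groups overlapped.

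Trp53 stood at 38.8, 42.4 and 33.6 normalized counts at 6 months and at 53.1, 35.9 and 28.4 at 18 months, with a log2 change of -0.01 ± 0.39 (SE; limma, adjusted p = 0.998). Mdm2 stood at 36.8, 43.3 and 63.8 against 19.7, 86.1 and 87.1 normalized counts. Replicates 2 and 3 of 18 months were above all 6 month libraries, and replicate 1 was below them. The log2 change was 0.18 ± 0.50 (SE; limma, adjusted p = 0.975). Without 18 month replicate 1 it was 0.88 ± 0.34 (SE), with an unadjusted p of 0.0227 and an adjusted p of 0.837 in limma. Ccng1 varied least of the 9 genes at 6 months, at 92.4, 82.7 and 93.6 normalized counts. At 18 months it stood at 142, 65.7 and 81.4, with replicate 1 high and the other two below the 6 month range, and a log2 change of 0.03 ± 0.29 (SE).

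Gadd45a was detected in 5 of the 6 hippocampus libraries. It stood at 5.78, 2.12 and 3.22 normalized counts at 6 months and at 0, 4.35 and 3.11 at 18 months, with a log2 change of -0.67 ± 0.95 (SE; limma, adjusted p = 0.947). Gadd45b stood at 14.8, 31.3 and 7.74 against 8.96, 21.7 and 16.3 normalized counts, with a log2 change of -0.06 ± 0.69 (SE). The 2 tissues were normalized apart and sampled at different ages, so the difference between them was not tested. The authors' deposited table gives log2 changes from -1.15 for Cdkn2c to 0.42 for Mdm2 in hippocampus, with adjusted p-values of 0.939 to 0.999 for 6 of the 9 genes and none for Cdkn1c, Cdkn2c and Gadd45a. Among the genes with an adjusted p there, 0.305% were past the threshold.

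**Figure D5:**
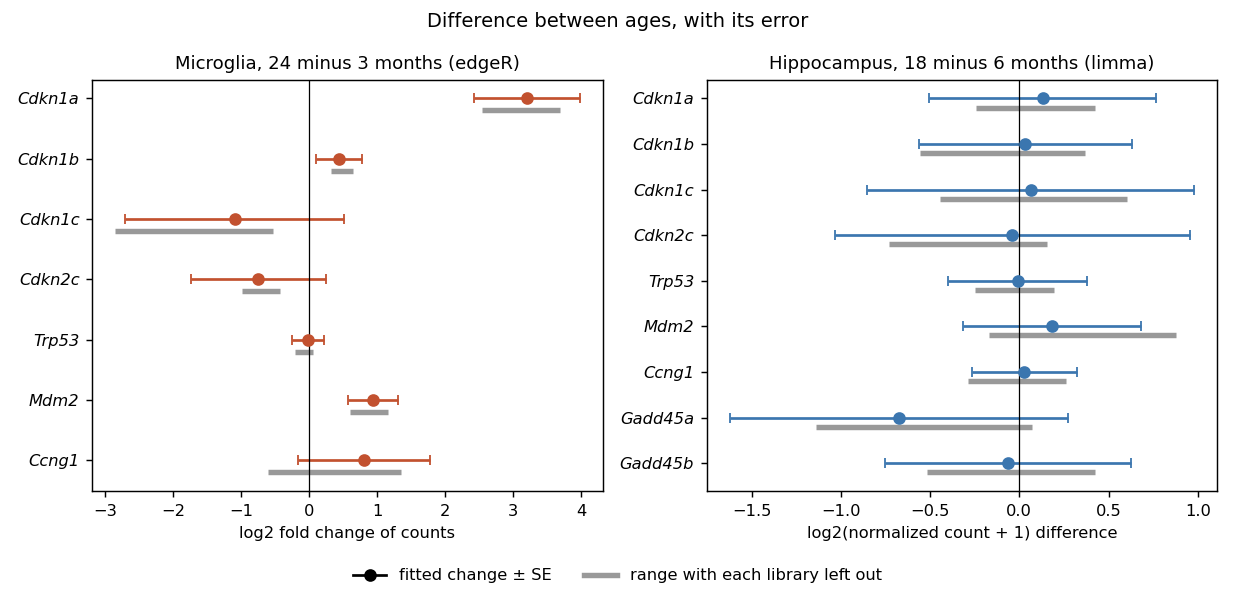
Fitted log2 difference between ages for each tested gene, older minus younger, in microglia (left, edgeR) and hippocampus (right, limma on log2(normalized count + 1)). Points with bars are the change ± SE and grey bars span the values with each library left out in turn. The bar of Cdkn1a in microglia spans 2.54 to 3.68, and that of Ccng1 in microglia crosses 0.

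The genes nearest to Cdkn1a in pattern over the 6 hippocampus libraries, among 6726 candidates, were Fbf1 (0.14), Igf2r (0.15) and Rnaseh2c (0.17). For Gadd45b they were Gpr137 (0.07), the astrocyte potassium channel Kcnj10 (0.17) and the neuregulin receptor Erbb4 (0.17). For Ccng1 they were Gtf2b (0.08), Pitpna (0.08) and Rnf150 (0.09). Kcnj10 stood at 69.4, 143 and 50.4 normalized counts at 6 months and at 44.9, 89.9 and 77.5 at 18 months. Its highest library was 6 month replicate 2, as for Gadd45b, whose pattern it was picked to match.

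No gene of the pathway lists passed limma's test in hippocampus. Of 24 tested other p53 targets, 15 were higher and 9 lower at 18 months (47.2% of all genes tested were higher), with none called in limma and a median log2 change of 0.09. Polk, a translesion polymerase, stood at 0, 5.39 and 3.16 normalized counts at 6 months and at 21.6, 20.8 and 11.6 at 18 months. Its groups did not overlap, and the log2 change was 2.62 ± 0.91 (SE; limma, adjusted p = 0.877). Apaf1, the core of the apoptosome, stood at 18.2, 24.4 and 38.3 against 0, 3.84 and 21.1 normalized counts (limma, adjusted p = 0.877). Cdkn2d, the INK4 inhibitor p19, stood at 21.8, 52.4 and 10.1 against 0, 0 and 26.0 normalized counts, where 18 month replicate 3 lay within the 6 month range.

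Regulators and damage kinases gave 8 higher and 9 lower of 17 tested in hippocampus, none called in limma. Mdm4, the partner of Mdm2, stood at 66.9, 260 and 180 normalized counts at 6 months and at 78.1, 82.8 and 124 at 18 months. Cyclins and kinases gave 5 higher and 4 lower of 9, and retinoblastoma and E2F genes 3 higher and 6 lower of 9. Tob1, an antiproliferative relative of Tob2, stood at 30.8, 41.6 and 36.9 against 53.8, 65.7 and 44.3 normalized counts, with no overlap and a log2 change of 0.56 ± 0.35 (SE; limma, adjusted p = 0.913). The immediate early genes, so uneven among the old microglia libraries, summed to 662 to 860 normalized counts at 6 months and to 583 to 841 at 18 months. Choroid plexus markers, by contrast, ran from 380 to 9124 normalized counts at 6 months and from 670 to 12961 at 18 months, and their part in the values of the 9 genes was not tested.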

How the data were processed

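RNA was isolated with Trizol and made into cDNA from an oligo-dT primer, amplified and tagmented, per the labels' protocols, which name no molecular identifiers and no strand-keeping kit. Tools named without versions in the submitters' processing notes are kallisto, DESeq and DESeq2, beside 2 builds, GRCm39 and mm10, that are not tied to single files. The microglia table holds, per the file headers, TPM, the estimated count and the mean transcript length of each gene in each library as the authors deposited them. For each tissue the authors deposited a comparison table with normalized counts (a signal scaled between samples), the log2 fold change and its SE, the score of a Wald test, and p-values, per the file headers. All log2 changes are given here as older minus younger.

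Estimated counts were rounded and tested with edgeR 4.0.16 (R 4.3.3; quasi-likelihood, TMM, filterByExpr, 10663 genes). The hippocampus table used here holds no counts, so limma 3.58.1 with a mean trend was run on log2(normalized count + 1). Its filter kept 13491 genes, those at 1 or more in 3 or more samples. Both tests were two-sided and adjusted by Benjamini-Hochberg over all genes, with a threshold of 0.05. Both were run on simulated data that held no outlying library and, for hippocampus, no values near a single read. Those runs do not cover such cases. DESeq2 1.42.0 was an alternative. The SE of an edgeR change is its size divided by the root of its F statistic. Depth was 8068023 to 14217142 estimated counts per microglia library. Hippocampus columns summed to 974126 to 1002529 normalized counts and its depth is known only roughly, since 23.5% to 50.3% of low values were whole multiples of a read (tolerance 0.1). The entry without a gene name (0.0546% to 0.0771% of microglia counts, 0.0233% to 0.0335% of the hippocampus signal) was left out. Floors cover counting error only.

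The genes and lists were chosen with earlier results of these data known. All 10 genes are given whatever their values. From each pathway list up to 3 genes with the smallest unadjusted p per tissue could be named, and the 3 genes nearest in pattern for Cdkn1a, Gadd45b (hippocampus only, since it did not pass the microglia filter) and Ccng1. Promoter windows and gene positions are RefSeq's on GRCm38.p6. Alternatives were scaling, filter, test, transcript length, pseudocount, trend, the replicate number as a block, and leaving out libraries.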

Additional observations from a re-analysis of the deposited data

How the results depend on the processing

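In microglia, 0 of the genes described passed the threshold in edgeR, and 1 of them (Cdkn1a) did with DESeq2's Wald test, where 251 of all genes passed in place of 0, 194 of them higher in old. The cause was not tested. Leaving out each library in turn gave 0 to 1 of the genes described and 0 to 55 of all genes, the 1 and the 55 both without 24 month replicate 3, whose omission leaves the 2 old libraries with high immediate early genes. The counts stayed at 0 with RLE scaling, no filter, transcript lengths as an offset, and replicate 1 of both ages left out. With each library left out in turn the log2 change ran from -0.61 to 1.34 for Ccng1, negative without 24 month replicate 1 only, and from -0.21 to 0.0619 for Trp53. With replicate 1 of both ages left out that of Ccng1 was -0.64. These changes of sign lay within the errors of the fits.

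In hippocampus, none of the genes described that were tested passed in any alternative run (Cdkn2c missed the filter without 6 month replicate 1, 18 month replicate 1 or 18 month replicate 2), and of all genes 1 passed without the mean trend and 0 to 1 with each library left out. The log2 changes ran from -0.24 to 0.42 for Cdkn1a, -0.55 to 0.37 for Cdkn1b, -0.44 to 0.60 for Cdkn1c, -0.73 to 0.16 for Cdkn2c (3 of 6 fits), -0.25 to 0.19 for Trp53, -0.17 to 0.88 for Mdm2, -0.29 to 0.26 for Ccng1, -1.14 to 0.0693 for Gadd45a and -0.52 to 0.42 for Gadd45b with each library left out, so no direction was fixed. Cdkn1b turned to -0.0055 with a pseudocount of 5 and Cdkn2c to 0.79 with a pseudocount of 0.1. A count test was not run for want of counts.

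The labels give both ages the same replicate numbers. Same-numbered microglia libraries had correlations of their deviations from the group mean of 0.065, 0.012 and -0.027, and hippocampus libraries of 0.012, 0.009 and 0.014, and not every library correlated best with its own number, so the numbers were not taken as pairs. With the replicate number as a block, 0 genes passed in either tissue, and in microglia the log2 change was 2.79 for Cdkn1a and -0.18 for Ccng1. With 3 libraries a group, the values are limited by the spread among libraries. In microglia the SD in CPM was larger among the old libraries for Cdkn1a, Mdm2, Ccng1 and Gadd45b. It was larger among the young libraries for Cdkn1b and Cdkn2c. Which group set the error of each fit was not tested.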
